A study of Homo sapiens with 21 samples.

Results

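The chromosome 19 zinc finger genes were taken as the genes whose clusters carried a name made of ZNF, a number and at most 1 further letter, on chromosome 19. HNRNPK-bound clusters were found in 230 such genes, with 3844 clusters of 778762 in all. For comparison, 237 genes of the same name pattern on other chromosomes held 8086 clusters, and 933 other named genes on chromosome 19 held 12615. HNRNPK binding was mapped by PAR-CLIP in the established cell line MDA-MB-231, of triple-negative breast cancer origin, in the cytoplasmic and nuclear fractions of parental cells and of cells with a CRISPR/Cas9 knockout of *KRT19*, named genotype K19 KO in the labels. Cells of both genotypes received 4SU, a uridine analog that crosslinks to protein under UV light and is then read as C in place of T, and the labels name the antibody anti-HNRNPK/J. Each of the 4 conditions is 1 library, so differences between libraries are given as values without a replicate check or a p-value. A cluster is a stretch of overlapping reads with T-to-C changes, and the smallest cluster held 5 reads, so a gene or site without a cluster is not known to have 0 reads. Binding is not a level of RNA, and more RNA of a gene and more HNRNPK on each RNA cannot be told apart here.

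Most of these genes code for C2H2 zinc finger proteins, in which short repeated fingers, usually encoded together in a single last coding exon, read DNA sequence. Many also carry a KRAB domain, which recruits the co-repressor *TRIM28* and with it *SETDB1* and HP1 proteins, and a well-known role of this family is the silencing of transposable elements. The genes stand in tandem clusters along chromosome 19 that grew by gene duplication. HNRNPK is an RNA-binding protein whose KH domains prefer runs of cytosine.

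The 10 sequences that follow are 30 nt windows of the largest cluster in the 10 members with the largest single sites by reads. Each window holds the summit of its cluster, often away from the window's center. The windows are shown because these are the largest sites of their genes. They were chosen after their values were seen. All coordinates are GRCh37, letters are written 5′ to 3′ on the RNA strand as DNA, and capitals mark runs that hold CCC.
*ZNF121*, processed transcript, minus strand, chr19:9671613-9671642: taactcataccactctttttaaaaatcaac
*ZNF587*, 3'UTR, plus strand, chr19:58373029-58373058: atctatttCCCatttcattaatatatttaa
*ZNF260*, 3'UTR, minus strand, chr19:37004307-37004336: ataatatctCCCatcataatataaaatatt
*ZNF507*, 3'UTR, plus strand, chr19:32876091-32876120: ttttaaattacctttatttctttaaactaa
*ZNF585B*, 3'UTR, minus strand, chr19:37672978-37673007: atttCCCatatatCCCCtaCCCtcacatat
*ZNF561*, 3'UTR, minus strand, chr19:9719118-9719147: atgaggttaaaaacaaatttatattctcac
*ZNF317*, 3'UTR, plus strand, chr19:9273088-9273117: ttttaaaatacaattagtgctgataattcc
*ZNF146*, 3'UTR, plus strand, chr19:36729538-36729567: attcatttccaattaaatactaaacatttt
*ZNF614*, 3'UTR, minus strand, chr19:52517138-52517167: aaccataattatcaaaaccagaaaaacaac
*ZNF28*, coding, minus strand, chr19:53304488-53304517: ataattCCCtccattcttcattactcacac
Of these 10 clusters, 8 lay in 3'UTRs and 4 held CCC. The windows were rich in A and T and poor in G, with 0 to 3 G among 30 bases. According to the methods, the lysates were treated with RNase T1, an enzyme that cuts RNA after G, and its part in this composition was not tested.

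A further set is the clusters of at most 30 nt with the most reads in coding sequence and introns, and 2 of the sites found in all 4 libraries, shown beside the 3'UTR sites.
*ZNF486*, coding, plus strand, chr19:20308099-20308125: tcctcaaCCCatactacacataaaaaa
*ZNF460*, coding, plus strand, chr19:57803462-57803487: atctcattcaacactccatcatccac
*ZNF614*, coding, minus strand, chr19:52520004-52520032: tctcattacacatcaacaaaCCCatacag
*ZNF320*, intron, minus strand, chr19:53394815-53394842: atctctttCCCCaaacatcaaaaCCCtt
*ZNF544*, intron, plus strand, chr19:58760014-58760042: ctaCCCattcatCCCtCCCtcatCCCCag
*ZNF254*, intron, in all 4 libraries, plus strand, chr19:24223292-24223320: cttatCCCttcctttctatatCCCtCCCa
*ZNF850*, 3'UTR, in all 4 libraries, minus strand, chr19:37235201-37235230: tacttttcacttttaaaaattaactctttt
The 3 intronic clusters each held CCC more than once, and the 3'UTR cluster of *ZNF850* held none. Each of these sequences occurs at 1 place in GRCh37. The 3'UTR window of *ZNF585B* above also held CCC more than once, so these few sites do not set the classes apart. A further site found in all 4 libraries, in *ZNF91*, held CCC and is not printed. The *ZNF544* cluster was found in *KRT19* KO nucleus alone and the *ZNF486* cluster in parental cytoplasm alone.

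The 4 libraries held 5551612, 3537577, 6216226 and 3252800 reads in clusters in parental cytoplasm, parental nucleus, *KRT19* KO cytoplasm and *KRT19* KO nucleus, the order used for sets of 4 values from here on. The parental cytoplasmic library stood apart in the stretches of the genome where it held clusters. It had 0 clusters on sequences other than chromosomes, against 221 to 269 in the others, and 215 bins of 100000 nt, 7 of them on chromosome 19, held at least 5 clusters in it and none in the other 3 libraries, against 2 to 5 bins for each other library. *KRT19* had 1 cluster of 7 reads in parental cytoplasm and 1 of 5 reads in *KRT19* KO cytoplasm, too few to check the genotype. As a check of the fractions, *NEAT1*, a nuclear RNA, had a log2 ratio of cytoplasmic to nuclear share of reads of −1.80 in parental and −2.42 in *KRT19* KO cells, whereas *MALAT1*, also nuclear, had 0.47 and 0.62. As a check of the cell line, *VIM* and *CD44*, markers of this mesenchymal-like line, had clusters in every library, and *PGR* had none in any. *ESR1*, a gene not expected to be expressed in a triple-negative line, had clusters of 26 to 77 reads in each library.

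Counted over all annotation classes together, HNRNPK binding to the chromosome 19 zinc finger genes took a larger part of the *KRT19* KO cytoplasmic library than of the other 3. Their clusters numbered 982, 855, 1160 and 847 and their reads 22541, 13417, 48398 and 13722, from 186, 174, 195 and 178 genes. The share of all reads in clusters was 0.406%, 0.379%, 0.779% and 0.422%, and the share of clusters was 0.487%, 0.427%, 0.653% and 0.425%. By either measure the *KRT19* KO cytoplasm was highest and the other 3 libraries lay close together. In ZNF genes on other chromosomes the share of reads was 0.956%, 0.964%, 1.10% and 0.95%, a smaller rise in the same library. In other named genes on chromosome 19 it was 1.23%, 1.84%, 1.76% and 1.72%, so there the parental cytoplasm was lowest. Unique reads made up 31.4%, 19.4%, 45.7% and 18.3% of the members' reads, close to the 30.9%, 19.99%, 45.6% and 19.0% of all clusters. The share of unique reads thus differed between the libraries, in members as in all clusters, and the cause was not tested.

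Binding was uneven among the 230 genes. The median member had 146.5 reads over the 4 libraries, 55 members had fewer than 50, and the 15 with the most reads held 43.3% of all member reads. Clusters were found in all 4 libraries for 140 members, in 3 for 30, in 2 for 23 and in 1 for 37. The annotation lists 246 protein-coding genes of this name pattern on the chromosome, and 221 of them had a cluster. All clusters with an annotated gene strand, 3805 of 3844, lay on that strand.

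The member with the most reads was *ZNF121* (9671005 to 9695180), with 1573, 379, 6127 and 227 reads. Its *KRT19* KO cytoplasmic value was the highest of any member in any library. Of these reads, 1248, 307, 4644 and 112 lay in clusters of the processed transcript class, that is, in transcripts annotated without a coding frame. The 2 largest of these sites were at 9671599 to 9671642, with 633, 96, 2301 and 58 reads, and at 9672132 to 9672215, with 410, 83, 1555 and 33. *ZNF146*, whose protein consists of zinc fingers with no KRAB domain, followed with 1119, 406, 1822 and 478 reads. The zinc finger gene *ZNF714* had 626, 205, 2486 and 220 reads, of which 244, 8, 1795 and 84 lay in coding sequence. For these 3 genes the *KRT19* KO cytoplasm was highest, and both cytoplasmic values lay above both nuclear ones.

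Other heavily bound members differed in which library led. *ZNF507* had 1396, 281, 1297 and 174 reads and *ZNF529* had 830, 37, 819 and 140, so both cytoplasmic values were high and nearly equal. *ZNF587* had 893, 70, 1283 and 205 reads, all in 3'UTR clusters, and *ZNF260* had 839, 96, 1218 and 32. *ZNF83* had 971, 1074, 1135 and 618 reads in many intronic clusters (129 over the 4 libraries, 3570 reads), and *ZNF544* had 515, 537, 400 and 581. In *ZNF83* and *ZNF544*, the members bound mostly in introns, nuclear and cytoplasmic read counts were of the same order. These counts are not scaled to the library totals, which were smaller in the nuclear libraries, so equal counts are not equal shares. *ZNF91*, known as a repressor of SVA retrotransposons, had 648, 477, 326 and 471 reads, lowest in *KRT19* KO cytoplasm, and most of them (484, 383, 237 and 317) lay in processed transcript clusters. *ZNF93*, known as a repressor of LINE-1 elements, had 163, 189, 811 and 139 reads, with 55, 7, 364 and 5 in coding sequence.

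**Figure D1:**
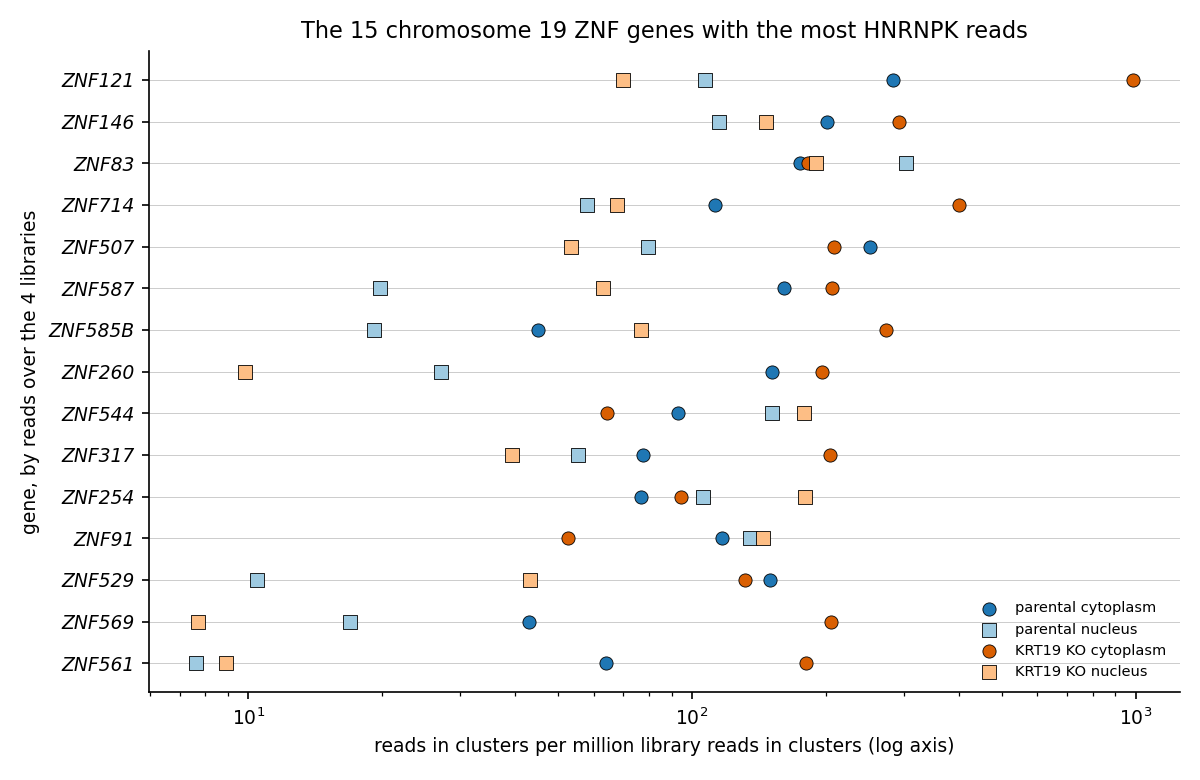
Reads in clusters as RPM, per 1000000 reads in clusters of the library (log axis), for the 15 chromosome 19 zinc finger genes with the most reads, with circles for cytoplasm, squares for nucleus and color for genotype. For *ZNF121*, *ZNF714* and *ZNF569* the *KRT19* KO cytoplasm lies to the right of the other libraries, whereas the points of *ZNF83*, *ZNF544* and *ZNF254* span a narrower range.

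The members' clusters lay in 3'UTRs and coding sequence more often in the cytoplasmic than in the nuclear libraries. 3'UTRs held 203, 79, 334 and 95 member clusters, or 20.7% (18.3 to 23.3), 9.24% (7.48 to 11.4), 28.8% (26.3 to 31.5) and 11.2% (9.26 to 13.5) in 95% Wilson intervals that reflect counting error alone. The intervals of the cytoplasmic and nuclear libraries did not overlap in either genotype, nor did those of the 2 cytoplasmic libraries. Coding sequence held 9.16%, 5.85%, 15.6% and 6.26% of member clusters, and introns held 57.2%, 72.6%, 42.2% and 69.8%. In all other named genes the cytoplasmic libraries also had larger exonic shares than the nuclear ones, at lower levels, with 13.0%, 4.78%, 20.4% and 5.34% in 3'UTRs, 3.38%, 2.03%, 6.04% and 1.998% in coding sequence, and 74.5%, 83.8%, 63.6% and 82.2% in introns. Other named genes on chromosome 19 were close to the members in 3'UTRs, with 19.3%, 7.06%, 28.8% and 8.20%. In parental cytoplasm their intron share, 59.3%, was also near the members' 57.2%.

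**Figure D2:**
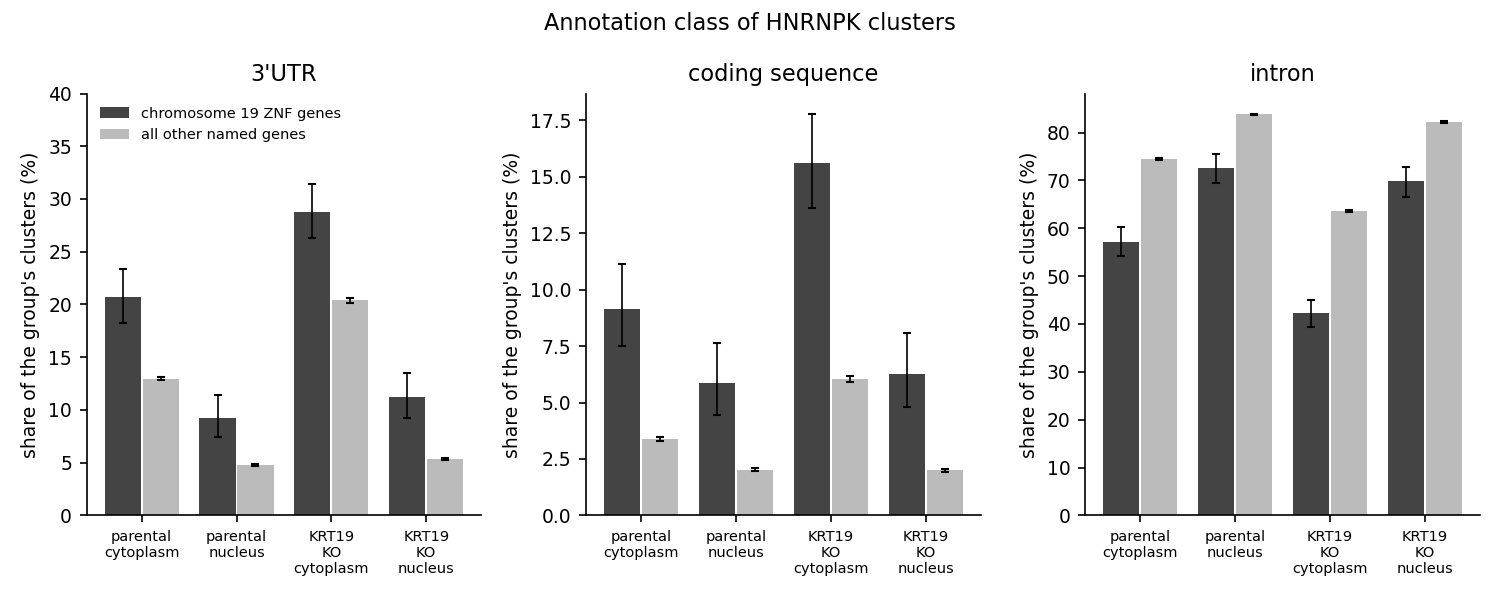
Percent of clusters that lie in 3'UTRs, coding sequence and introns in each library, for chromosome 19 zinc finger genes (dark) and all other named genes (light), with 95% Wilson intervals as bars. The members' 3'UTR share was 20.7% and 28.8% in the cytoplasmic libraries against 9.24% and 11.2% in the nuclear ones. Their intron share lies below that of all other named genes in every library.

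Counted by reads rather than clusters, 3'UTRs held 39.0%, 10.7%, 46.0% and 13.6% of the members' reads and introns 36.8%, 72.5%, 16.3% and 67.7%. In all other named genes the 3'UTR shares of reads were 37.8%, 6.40%, 53.7% and 6.86%, so by reads the members lay near the other genes in parental cytoplasm and below them in *KRT19* KO cytoplasm. Coding reads were 9.53%, 5.12%, 16.4% and 5.12% of the members' reads against 2.68%, 2.81%, 6.56% and 5.55% in all other named genes. In ZNF genes on other chromosomes coding reads were 4.999%, 2.44%, 12.25% and 2.47%, below the members in every library. They were above all other named genes in the cytoplasmic libraries alone. The processed transcript class held 9.47%, 8.54%, 7.41% and 7.91% of member clusters, against 2.27%, 2.19%, 2.39% and 2.48% in all other named genes. In ZNF genes on other chromosomes it held 6.28%, 5.28%, 6.76% and 5.998%. A share above that of all other named genes was therefore not particular to the members. Among the 230 members, the class with the most reads was the intron for 116, the 3'UTR for 63, coding sequence for 21 and the processed transcript for 18.

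The members with the most 3'UTR clusters were *ZNF529*, *ZNF780A*, *ZNF507*, *ZNF585B* and *ZNF562*. *ZNF585B* had 250, 68, 1697 and 249 reads, *ZNF562* had 70, 158, 537 and 162, and *ZNF780A* had 251, 108, 560 and 36. In these 3 genes the *KRT19* KO cytoplasm was highest. Within the 3'UTR, the median distance of member clusters from the stop codon was 1227, 1346, 1307 and 1255 nt, and the median 3'UTR length of the genes that held them was 2491, 2596, 2314 and 2596 nt. The distances were therefore alike in the 4 libraries.

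The members with the most coding clusters were *ZNF714*, *ZNF675*, *ZNF93*, *ZNF681* and *ZNF460*. *ZNF675* had 135, 49, 613 and 34 coding reads, again highest in *KRT19* KO cytoplasm. Of the member coding clusters that could be placed in an annotated coding exon, 76 of 77, 44 of 45, 153 of 157 and 42 of 45 lay in the last coding exon, the exon that encodes the finger array in this family. That is 98.7%, 97.8%, 97.5% and 93.3%, against 17.1%, 13.9%, 19.2% and 14.5% in all other named genes. In ZNF genes on other chromosomes it was 57.0%, 41.9%, 54.4% and 39.7%, so a share above that of all other named genes was not particular to the members. The last exon held 83.8% of the coding bases of the 204 members placed and 13.0% of those of 11835 other genes. In 207 ZNF genes on other chromosomes it held 51.7%.

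The members with the most intronic clusters were *ZNF83*, *ZNF254*, *ZNF177*, *ZNF146* and *ZNF544*. *ZNF254* had 426, 374, 587 and 584 reads and *ZNF177* had 257, 255, 450 and 219. These counts are not scaled to the library totals, which were smaller in the nuclear libraries, so no order of fractions is read from them. Few member intron clusters lay within 100 nt before an exon, where the polypyrimidine tract stands. They numbered 2 of 460, 19 of 514, 6 of 378 and 14 of 492, or 0.435%, 3.70%, 1.59% and 2.85%, against 1.03%, 1.80%, 1.27% and 2.05% in all other named genes.

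CCC was less frequent in member clusters than elsewhere on the chromosome. It stood in 34.7%, 43.3%, 36.8% and 40.5% of member clusters, in 39.8%, 45.5%, 40.7% and 44.8% of those of all other named genes, and in 54.9%, 61.6%, 59.2% and 61.2% of those of other named genes on chromosome 19. ZNF genes on other chromosomes were near the members, with 37.6%, 43.5%, 38.2% and 43.5%. The members thus lay below their chromosomal neighbours in every library and close to the ZNF genes elsewhere. In 3'UTR clusters CCC stood in 27.6%, 35.4%, 33.2% and 37.9% of the members' and 34.9%, 46.4%, 36.6% and 46.0% of the others', and in coding clusters in 28.9%, 36.0%, 30.9% and 37.7% against 40.1%, 49.7%, 45.4% and 52.0%. In introns the values were close, at 38.4%, 45.2%, 41.2% and 40.9% against 40.6%, 45.2%, 41.3% and 44.3%. Cytosine made up 24.5%, 26.5%, 25.2% and 27.8% of the bases of member clusters and 25.7%, 27.6%, 26.0% and 28.8% of those of all other named genes. Shares of clusters with CCC move with base composition and with cluster length, and neither was corrected for.

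Most individual sites were found in 1 library. Clusters that overlapped on the same strand were merged into 2899 sites, of which 2231 (77.0%) were in 1 library, 443 in 2, 176 in 3 and 49 (1.69%) in all 4. The 49 sites held 20.2% of the members' reads, with a median of 168 reads against 9 for sites in 1 library. A site near the minimum of 5 reads can be missed in a library, so absence of a cluster does not show absence of binding. Of 508 3'UTR sites, 47 in 36 genes were found in both cytoplasmic libraries and no nuclear one, and 1 in both nuclear libraries and no cytoplasmic one. Of 287 coding sites these numbers were 23 and 2, and of 1731 intronic sites 51 and 42. A further 206 3'UTR and 123 coding sites were seen in *KRT19* KO cytoplasm alone, against 98 and 49 in parental cytoplasm alone. For introns the order was the other way, with 255 against 321. No share over all genes stands beside these site counts, so they describe the members only and do not set them apart from other genes.

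The next comparison asked which members were bound more in cytoplasm than in nucleus. For each gene the share of a library's reads, with 5 reads added to the gene's count, was compared between 2 libraries and called at a 2-fold difference, provided the pair held 50 reads or more of the gene. In parental cells 135 of 230 members were compared, and 32 were higher in cytoplasm, beside 17.8% of all genes compared, and 43 lower, beside 34.4%. The median log2 ratio was −0.33 for members and −0.55 for all genes. In *KRT19* KO cells 136 members were compared, and 46 were higher in cytoplasm, beside 23.4% of all genes, and 30 lower, beside 41.2%. There the median was 0.58 for members and −0.63 for all genes. Members were therefore called higher in cytoplasm in 23.7% and 33.8% of cases, above the background in both genotypes. Without the 4 genes in bins that the parental cytoplasm alone covered, 28 of 131 members were higher and 43 lower in parental cytoplasm. No share over all genes stands beside these 2 counts. Of the 32 in parental cells, 10 had no nuclear cluster, and of the 46 in *KRT19* KO cells, 8 had none. With clusters required in both libraries, 22 of 125 members were higher and 43 lower in parental cytoplasm, beside 14.4% and 34.9%. In *KRT19* KO cytoplasm 38 of 128 were then higher and 30 lower, beside 21.2% and 41.7%. The balance of higher and lower members depended on the minimum of reads. In parental cells it was 24 higher and 18 lower of 79 with at least 100 reads, beside 18.4% and 31%, and 18 and 6 of 50 with unique reads, beside 19.3% and 26.6%. In *KRT19* KO cells it was 52 and 54 of 178 with at least 20 reads, beside 21.6% and 45.1%. Among ZNF genes on other chromosomes in *KRT19* KO cells, 39 of 160 were higher and 46 lower.

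Members called higher and lower differed in the class that held most of their reads. That class is taken from reads that also enter the ratio. In all other named genes, too, cytoplasmic reads lay in 3'UTRs more often than nuclear reads. A link between class and direction is therefore partly built in, and no such split over all genes stands beside these counts. Of the 32 members higher in parental cytoplasm, 19 had most of their reads in 3'UTRs and 7 in introns, and of the 43 lower, 33 had most in introns and 3 in 3'UTRs. In *KRT19* KO cells, 28 of the 46 higher had most in 3'UTRs, 7 in coding sequence and 4 in introns, and of the 30 lower, 24 had most in introns and 1 in 3'UTRs. When 3'UTR reads alone were compared, as shares of all 3'UTR reads, 8 of 41 members were higher and 16 lower in parental cytoplasm, beside 29.9% and 31% of genes, and 12 of 59 higher and 24 lower in *KRT19* KO cytoplasm, beside 21.1% and 33.7%. The excess of members called higher over all genes was therefore not seen within 3'UTRs. With intron reads alone, 13 of 90 members were higher and 25 lower in parental cytoplasm, beside 8.18% and 24.9%, and 14 of 80 higher and 21 lower in *KRT19* KO cytoplasm, beside 12.1% and 22.5%.

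Of 115 members compared in both genotypes, 17 were higher in cytoplasm in both, beside 12.8% of all genes, and 15 were lower in both, beside 22%. A further 5 went opposite ways, beside 2.3%. The 17 higher were *ZNF121*, *ZNF253*, *ZNF260*, *ZNF28*, *ZNF304*, *ZNF470*, *ZNF507*, *ZNF529*, *ZNF548*, *ZNF551*, *ZNF561*, *ZNF569*, *ZNF585A*, *ZNF585B*, *ZNF587*, *ZNF702P* and *ZNF776*. The 15 lower were *ZNF14*, *ZNF235*, *ZNF264*, *ZNF274*, *ZNF333*, *ZNF433*, *ZNF490*, *ZNF564*, *ZNF627*, *ZNF700*, *ZNF71*, *ZNF787*, *ZNF823*, *ZNF833P* and *ZNF841*. *ZNF274* is known for bringing *SETDB1* to the 3′ ends of zinc finger genes. Paralogous pairs such as *ZNF585A* and *ZNF585B* share sequence, and reads that fit both could be placed in either.

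**Figure D3:**
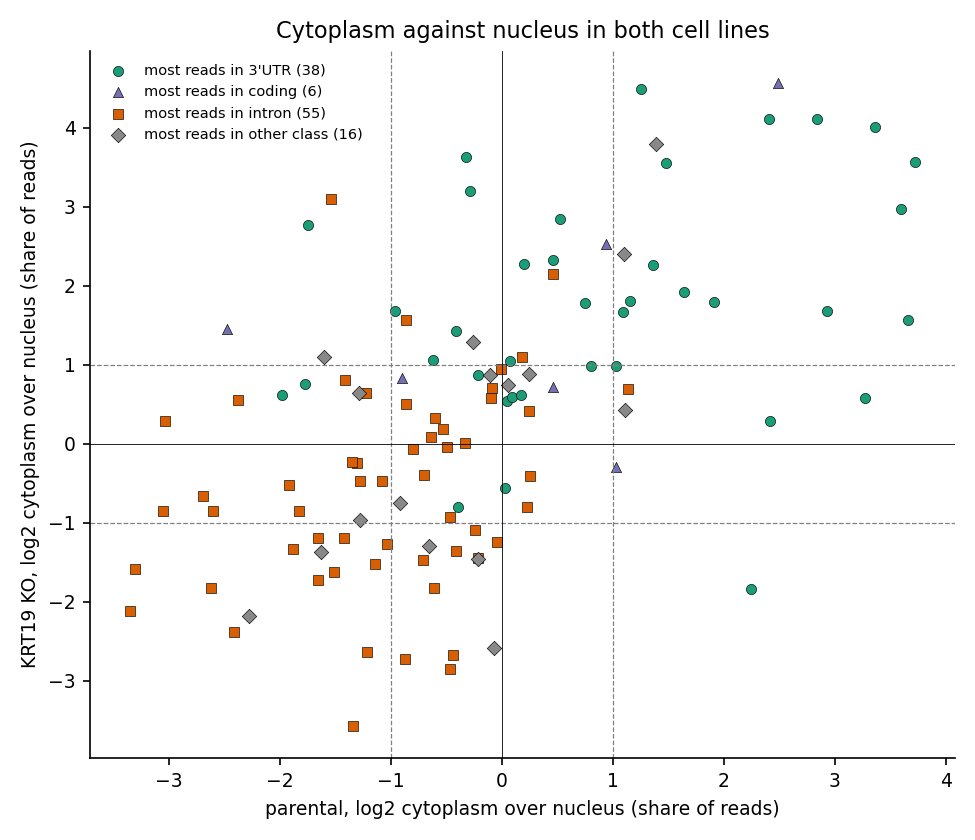
Log2 ratio of cytoplasmic to nuclear share of reads in parental (x axis) and *KRT19* KO (y axis) cells for the 115 members compared in both, marked by the class with the most reads (38 3'UTR, 6 coding, 55 intron, 16 other). Members bound mostly in 3'UTRs lie mainly in the upper right and those bound mostly in introns mainly in the lower left. The class is taken from reads that also enter the ratios, so this pattern is partly built in.

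In parental cells the members with the highest cytoplasmic ratio were *ZNF626*, *ZNF90* and *ZNF486*. They are among the genes in the bins, described above, that held clusters in the parental cytoplasmic library alone. *ZNF626* had 415 reads in parental cytoplasm and no cluster in the other 3 libraries, and *ZNF486* had 187 and likewise none. *ZNF90* had 199 reads in parental cytoplasm, none in parental nucleus, and 6 and 19 in the *KRT19* KO libraries. *ZNF626*, *ZNF486*, *ZNF100* (165 reads) and *ZNF85* were the 4 members with at least 5 clusters in parental cytoplasm and none elsewhere, beside 0.961% of all named genes, and 0 members had this pattern in parental nucleus, *KRT19* KO cytoplasm or *KRT19* KO nucleus, beside 0.0109%, 0.00546% and 0.0164%. The bins covered by the parental cytoplasmic library alone touched *ZNF486*, *ZNF626*, *ZNF85* and *ZNF90* between 20208877 and 21132907 and held 921 of the members' reads in that library, or 4.09%. The part of this difference in coverage in the values of these genes was not tested, and no fold is given for them.

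Among the 17 members higher in cytoplasm in both genotypes, the parental ratio was highest in *ZNF551* (log2 3.73), *ZNF529* (3.66) and *ZNF776* (3.60). The lowest values among all members compared were in *ZNF224*, with 15, 131, 5 and 22 reads (−3.42), *ZNF264*, with 7, 73, 33 and 81 (−3.35), and *ZNF787*, with 18, 140, 50 and 81 (−3.31). The latter 2 were also low in *KRT19* KO cells, at −2.11 and −1.58. In *KRT19* KO cells the highest was *ZNF28*, with 224, 21, 721 and 11 reads (log2 4.57), followed by *ZNF569*, with 238, 60, 1280 and 25 (4.49), and *ZNF561*, with 355, 27, 1123 and 29 (4.12). The ratio of shares in *ZNF28* was 34.3 (19.1 to 69.0, exact 95% interval for the ratio of 2 counts, counting error only). The lowest in *KRT19* KO cells were *ZNF564*, with 52, 87, 10 and 88 reads (−3.57), *ZNF350*, a repressor known to bind *BRCA1*, with 28, 24, 8 and 44 (−2.85), and *ZNF136*, with 38, 45, 26 and 102 (−2.72). *ZNF564* was low in both genotypes, whereas *ZNF350* and *ZNF136* did not pass 2-fold in parental cells.

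The comparison of genotypes asked how binding differed without *KRT19* within each fraction. In cytoplasm, 66 of 147 members (44.9%) had a share of reads at least 2-fold higher in *KRT19* KO than in parental cells, beside 19.6% of all genes, and 12 were lower, beside 21.4%. The median log2 ratio was 0.76 for members and −0.08 for all genes. In the nucleus 25 of 124 were higher, beside 13.4%, and 12 lower, beside 16.7%, with medians of 0.21 and −0.09. The members' difference between genotypes was thus larger in cytoplasm than in nucleus, without a test. ZNF genes on other chromosomes had 38 of 159 higher (23.9%) and 28 lower in cytoplasm, with a median of 0.22. Among the 66 members, 24 had most of their reads in 3'UTRs, 19 in introns, 11 in coding sequence and 9 in processed transcripts, so the difference was not limited to a single class. With 3'UTR reads alone, 26 of 64 members were higher, beside 24.8%, and 6 lower, beside 19.9%, and with intron reads alone 24 of 70 were higher, beside 20.1%, and 11 lower, beside 13.5%. In the nucleus these numbers were 5 higher and 6 lower of 22 with 3'UTR reads, beside 24.9% and 24.3%, and 20 higher and 8 lower of 93 with intron reads, beside 14.7% and 13.7%.

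**Figure D4:**
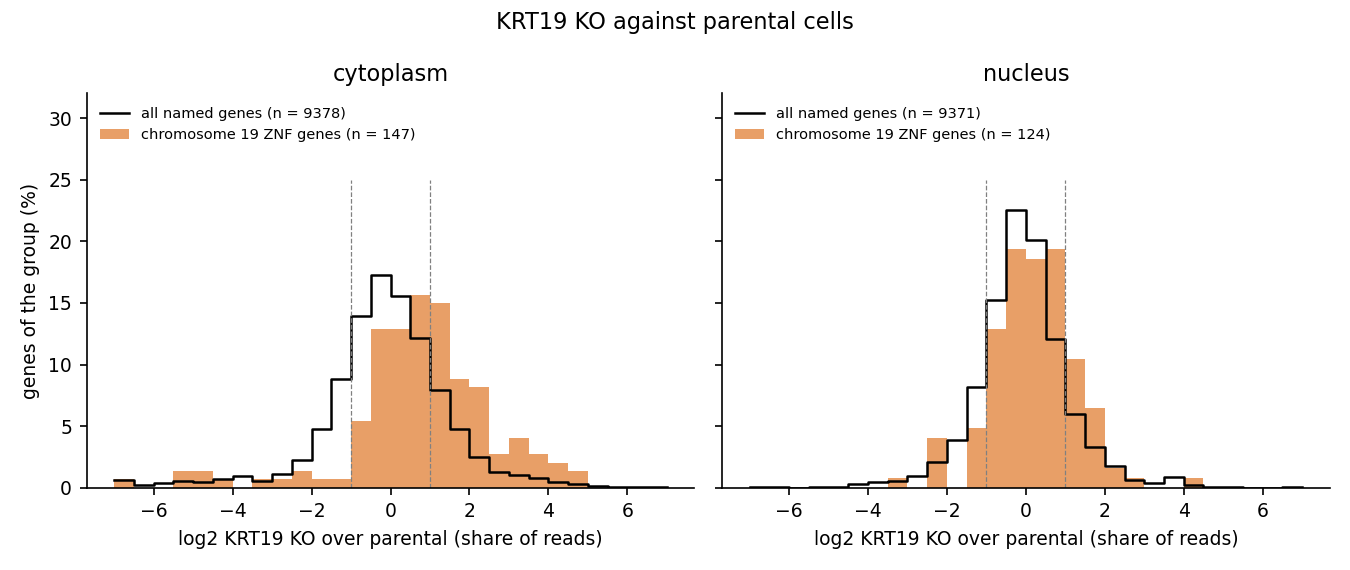
Percent of the members compared, by log2 ratio of *KRT19* KO to parental share of reads in cytoplasm (147 members) and nucleus (124 members), with the percent of all genes compared (9378 and 9371) as a line. Values beyond 7 are counted in the outermost bins and dashed lines mark 2-fold. The members' cytoplasmic distribution lies to the right of that of all genes, with medians of 0.76 and −0.08.

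Some members without a cluster in a library enter these counts through the 5 reads added. With clusters required in both libraries of the pair, 60 of 136 members were higher and 7 lower in *KRT19* KO cytoplasm, beside 18.9% and 19.1% of all genes, so the share of higher members was again above that of all genes. Without the 4 genes in bins that the parental cytoplasm alone covered, 66 of 143 were higher and 8 lower, beside 20% and 19.7%. With the deposited unique reads in place of all reads, 45 of 94 members were higher and 8 lower in cytoplasm, beside 18.3% and 18.7%. According to the methods, potential PCR duplicates had already been removed by molecular barcodes (UMIs). Whether unique reads stand for single molecules was not checked, so this setting is not a test for copies.

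*ZNF614*, *ZNF772* and *ZNF525* had the largest rise in *KRT19* KO cytoplasm. *ZNF614* had 39, 30, 1364 and 53 reads, a ratio of shares between the cytoplasmic libraries of 31.2 (22.7 to 44.1). A single 3'UTR site, from 52517138 to 52517182, held 1102 of the 1364 reads and had no cluster in either parental library. *ZNF772* had 26, 61, 737 and 52 reads, a ratio of 25.3 (17.1 to 39.0), and its 3'UTR site from 57983271 to 57983312 held 578 of the 737. *ZNF525* had 1 cluster of 156 reads, in *KRT19* KO cytoplasm and no other library. In these genes, then, most of the rise lay in 1 site each. *ZNF121* rose over more sites, with a ratio of 3.48 (3.29 to 3.68), and in *ZNF585B* the ratio was 6.06 (5.31 to 6.95). In *ZNF714* the coding sites from 21300860 to 21300911 and from 21300681 to 21300715 went from 117 and 105 reads in parental to 692 and 614 in *KRT19* KO cytoplasm. At 37902576 to 37902616, *ZNF569* had 614 reads in *KRT19* KO cytoplasm and no cluster in the other libraries.

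The largest falls in cytoplasm were those of *ZNF626*, *ZNF486* and *ZNF100*, whose reads were in parental cytoplasm alone as described. *ZNF480*, with clusters in every library, had 229, 126, 85 and 17 reads, a log2 ratio of −1.54 in cytoplasm and −2.45 in the nucleus, and *ZNF91* had −1.14 and 0.10. In the nucleus the largest rises were in *ZNF492*, with 0, 0, 61 and 71 reads, *ZNF816*, with 59, 15, 161 and 101 (2.53), and *ZNF829*, with 146, 13, 187 and 77 (2.31). *ZNF492* had no cluster in either parental library and *ZNF428*, with 18, 52, 0 and 0 reads, had none in either *KRT19* KO library. *ZNF749* had 29, 58, 176 and 6 reads, of which the 176 came from 1 cluster, so its fall in the nucleus and its rise in cytoplasm each rest on few reads or 1 site.

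Along the chromosome the members formed 17 groups separated by gaps of more than 1000000 nt. The group of 12 genes from *ZNF558* to *ZNF846* (8928047 to 9894274), which holds *ZNF121*, *ZNF317*, *ZNF561* and *ZNF562*, had 495, 314, 1627 and 269 RPM, that is, reads in clusters per 1000000 such reads of the library. The group of 32 genes from *ZNF101* to *ZNF254* (19780233 to 24312602), which holds *ZNF714*, *ZNF91* and *ZNF93*, had 909, 730, 1419 and 1005. The group of 26 genes from 36678231 to 38264331, with *ZNF146*, *ZNF260*, *ZNF529*, *ZNF569* and *ZNF585B*, had 806, 502, 1541 and 648. In all 3 the *KRT19* KO cytoplasm was highest. The same held for the groups of 39 genes from 52076995 to 54083368, with 622, 856, 1197 and 813, and of 51 genes from 55993206 to 58986487, with 540, 572, 1013 and 647. In the group of 27 genes with 181, 376, 314 and 509 RPM the nuclear libraries were higher than the cytoplasmic ones of the same genotype, and in the group of 21 genes with 113, 215, 123 and 153 likewise. *ZNF507*, alone in its group, had 251, 79.4, 209 and 53.5. Groups also differed in class, with 3'UTR shares of clusters of 36.6%, 12.3%, 40.7% and 11.3% in the group of 26 genes against 12.9%, 8.13%, 15.9% and 7.88% in the group of 32.

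**Figure D5:**
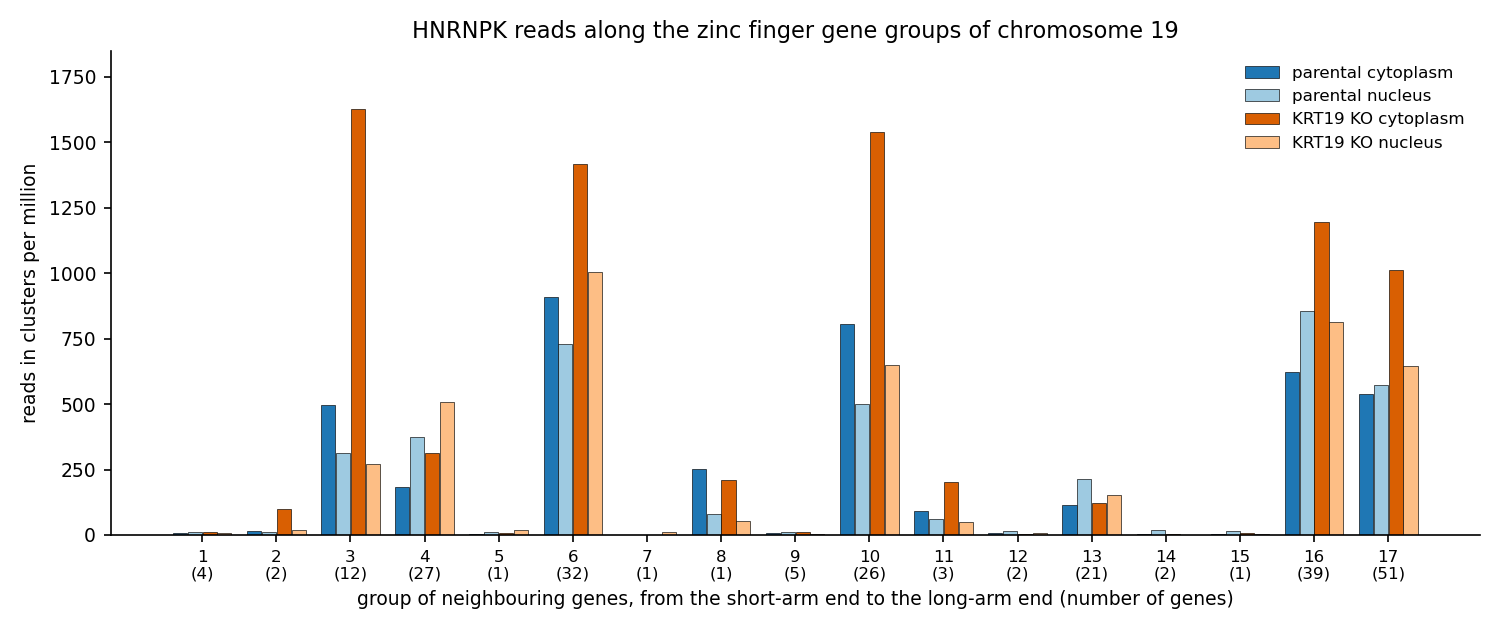
Reads in clusters as RPM, per 1000000 reads in clusters of the library, as bars for the 17 groups of neighbouring members in their order along chromosome 19, with the number of genes in brackets, blue for parental and orange for *KRT19* KO cells, and the darker shade for cytoplasm. The group of 12 genes that holds *ZNF121* has 1627 in *KRT19* KO cytoplasm against 269 to 495 in the other libraries, and *ZNF507*, alone in its group, is higher in both cytoplasmic libraries than in both nuclear ones.

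The proteins that act with KRAB zinc finger repressors were given by a list of 16 genes, all with enough reads. Between parental fractions 3 were higher in cytoplasm and 4 lower, beside 17.8% and 34.4% of all genes, and between *KRT19* KO fractions 3 and 5, beside 23.4% and 41.2%. Between genotypes 2 were higher and 1 lower in *KRT19* KO cytoplasm, beside 19.6% and 21.4%, and 0 and 1 in the nucleus, beside 13.4% and 16.7%. The 2 were *TRIM28*, the shared co-repressor, with 35, 24, 140 and 37 reads (log2 1.69), and *CBX5*, which codes for HP1 alpha, with 2793, 474, 10810 and 669 (1.79). *CHD4*, a chromatin remodeler, was the gene that was lower in both fractions, with 202, 92, 103 and 32 reads (−1.10 and −1.27).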

How the data were processed

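The data were 4 PAR-CLIP cluster tables, 1 library per condition. The 17 RNA-seq samples were not analysed here. According to the methods, the authors collapsed the reads with UMIs to remove potential PCR duplicates and then trimmed them. They used hg19 as reference and ran PARalyzer as part of PARpipe to call clusters. The labels list hg38. All 3844 member clusters equalled the GRCh37 sequence at their position, so GRCh37 was used, with GENCODE 44 mapped to it. The deposited counts per cluster (reads, unique reads, conversion locations, T-to-C reads) are raw. The fraction of T-to-C reads, the mode score and the log10 conversion specificity deposited by the authors were not used.

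Members were found by name. Shares have 95% Wilson intervals and ratios of 2 read counts have exact conditional binomial intervals. Both cover counting error only and treat reads as independent. Copies of 1 molecule left after the UMI step could not be told here. Gene ratios are log2((reads + 5)/library reads in clusters), called at 2-fold where the pair held 50 reads or more of the gene. No p-values were computed. Named genes were the 15 with the most reads, the 5 with the most 3'UTR, coding and intronic clusters each, and the 3 largest rises and falls per pair. Other genes and the 10 windows of 30 nt were chosen after their values were seen. Members, lists and rules were chosen with earlier results of these data known. Alternatives were the minimum of reads, of conversion locations and of reads per gene, weighting by reads, unique reads, the pseudocount, the motif, the overlap, strand, repeated sequences and the library total. Chosen after seeing the data were 3'UTR or intron reads alone, leaving out sequences found more than once in GRCh37, leaving out genes in bins of parental cytoplasm alone, and genes with clusters in both libraries. Calculations were tested on simulated data. Software was Python 3.11.15, matplotlib 3.10.9, scipy 1.17.1, pandas 2.3.3 and numpy 2.4.6.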

Additional observations from a re-analysis of the deposited data

Results flagged for a closer look

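For 5 members the cytoplasmic and nuclear shares of reads differed at least 2-fold in opposite directions in the 2 genotypes. With 1 library per condition, none of these differences was tested. *ZNF101* had 19, 80, 283 and 50 reads in parental cytoplasm, parental nucleus, *KRT19* KO cytoplasm and *KRT19* KO nucleus, with a log2 ratio of cytoplasm to nucleus of −2.47 in parental and 1.45 in *KRT19* KO cells. *ZNF527* had 25, 53, 301 and 70 reads, with −1.60 and 1.09. *ZNF749* had 29, 58, 176 and 6 reads, with −1.54 and 3.11. *ZNF772* had 26, 61, 737 and 52 reads, with −1.74 and 2.77. *ZNF765* went the other way, with 218, 25, 39 and 77 reads and ratios of 2.24 and −1.83.

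For 3 members the *KRT19* KO to parental ratio had opposite directions in the fractions, also without a test. *ZNF473*, with 11, 48, 57 and 17 reads, had log2 ratios of 1.79 in cytoplasm and −1.15 in the nucleus. *ZNF749* had 2.25 and −2.40. *ZNF765* had −2.50 and 1.57.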

How the results depend on the processing

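No paired analysis was possible because each PAR-CLIP condition is 1 library, and the RNA-seq groups that share replicate numbers were not analysed here. Of the values recomputed under the alternatives set at the start, 63 stayed within their counting interval or within 1.5 times the count and 41 moved, and of those added after seeing the data 28 stayed and 12 moved. The balance of members called higher and lower turned under some settings: between parental fractions (32 higher, 43 lower) with at least 100 reads or unique reads, between *KRT19* KO fractions (46, 30) with at least 20 reads and with 3'UTR or intron reads alone, and between nuclei (25, 12) with 3'UTR reads. Values follow in the order parental cytoplasm, parental nucleus, *KRT19* KO cytoplasm, *KRT19* KO nucleus, where moved.

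The members' share of clusters became 0.406% (parental cytoplasm), 0.379% (parental nucleus) and 0.779% (*KRT19* KO cytoplasm) when weighted by reads, 0.729% (*KRT19* KO cytoplasm) with at least 10 reads per cluster, and 0.398%, 0.696% and 0.472% (all but parental cytoplasm) with at least 2 conversion locations. Their 3'UTR share became 24.8% and 34.2% in the cytoplasmic libraries with at least 10 reads, 26.0% and 33.4% with at least 2 conversion locations, and 39.0%, 46.0% and 13.6% (*KRT19* KO nucleus last) when weighted by reads. The CCC share became 37.98% and 42.8% in the cytoplasmic libraries with at least 10 reads, 40.7%, 59.0% and 58.2% (all but *KRT19* KO cytoplasm) with at least 2 conversion locations, 27.6%, 35.4% and 33.2% (all but *KRT19* KO nucleus) in 3'UTRs alone, and 24.1%, 27.8%, 22.9% and 30.2% with TCCC. The share of clusters also found in another library, 45.8%, 37.9%, 41.6% and 42.0%, became 62.8%, 47.4%, 57.6% and 49.7% with at least 10 reads.

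Between parental fractions, the members past 2-fold became 24 higher and 18 lower with at least 100 reads per gene, 18 higher and 6 lower with unique reads, 8 and 16 with 3'UTR reads alone, and 13 and 25 with intron reads alone. Between *KRT19* KO fractions they became 52 higher and 54 lower of 178 with at least 20 reads, and 10 lower of 89 with unique reads. With 3'UTR reads they became 12 higher and 24 lower of 59, and with intron reads 14 higher and 21 lower of 80. Between cytoplasms they became 24 lower of 177 with at least 20 reads, and 26 higher and 6 lower of 64 with 3'UTR reads. With intron reads they became 24 higher of 70, and with clusters in both libraries 7 lower of 136. Between nuclei they became 22 lower of 162 with at least 20 reads, and 15 higher and 5 lower of 82 with at least 100. With unique reads they became 3 and 1 of 28, and with 3'UTR reads 5 and 6 of 22. These settings compare fewer or more genes, and no further cause was tested. A moved count is therefore not by itself a changed share, and not every setting has a share over all genes beside it.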

Other observations

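On chromosome 19, 12 further genes with zinc finger names outside the pattern had clusters. Of 7 with at least 50 reads in the cytoplasmic pair, 3 were at least 2-fold higher and 1 lower in *KRT19* KO cells, beside 19.6% and 21.4% of all genes compared. *ZFP30* had 85, 118, 429 and 66 reads in parental cytoplasm, parental nucleus, *KRT19* KO cytoplasm and *KRT19* KO nucleus, with a log2 ratio of 2.11 between the cytoplasmic libraries. *ZSCAN5A* had 257, 531, 134 and 228 reads, so both *KRT19* KO values lay below the parental ones of the same fraction. Both were named after their values were seen.

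The share of reads with a T-to-C change in the members' clusters was 64.5%, 75.9%, 60.9% and 77.9% in the same order, higher in both nuclear than in both cytoplasmic libraries.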
